A study of Mus musculus with 6 samples.

Results

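The matrix metalloproteinases (Mmp), their tissue inhibitors (Timp) and the related ADAM and ADAMTS proteases were followed in the heart ventricles of mice with and without Trex1. Members were all genes whose symbol in the array's annotation is Mmp, Timp, Adam or Adamts followed by a number, each represented by its brightest probe set with a single symbol. The rule found 65 of the 18193 genes with such a probe set: 18 Mmp, 4 Timp, 28 Adam and 15 Adamts genes, measured by 116 probe sets in all.

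These enzymes cut the matrix between cells and the proteins on cell surfaces, with a zinc ion in the active site. Mmp proteins are made as inactive precursors, are secreted or held at the membrane, and digest collagens, gelatin, elastin and proteoglycans once activated, while the Timp proteins block them by filling the active site. Adam proteins sit in the plasma membrane and release the outer part of growth factors, cytokines and receptors, and Adamts proteins are secreted and cut proteoglycans such as versican and aggrecan or trim procollagens. In the heart this system is best known for remodelling the matrix after injury, overload or inflammation.

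The tissue was heart ventricle from 6 mice, hybridised singly to Affymetrix arrays, from 3 litters that each gave 1 Trex1 WT and 1 Trex1 KO animal (pairs A, B and C, the order of all values listed). All 6, the Trex1 WT animals included, lacked Rag2 (RAG2KO) and hence mature T and B lymphocytes. Trex1 degrades DNA in the cytosol, and the comparison asks what differs in the heart when it is missing. Sample titles of pair C spell the gene Tre1, and the sources used here give no age, sex, strain or Trex1 allele. The probe set shared by Trex1 and Atrip gave signals of 714, 340 and 887 (Trex1 WT) against 9.45, 20.6 and 34.2 (Trex1 KO). Cardiomyocyte markers were above the bacterial controls on all arrays (8 of 8), and 0 of the 5 measured T and B lymphocyte markers were bright enough to test. The ratio of 3' to 5' Actb signal, a measure of RNA quality, was 1.80 to 2.29 in Trex1 WT and 1.60 to 1.68 in Trex1 KO and so did not overlap between the groups. The same ratio for Gapdh did overlap, with 0.850 to 0.925 in Trex1 WT and 0.841 to 0.885 in Trex1 KO. Probe sets for 18S ribosomal RNA averaged 10785, 10656 and 661 (Trex1 WT) against 2962, 1554 and 666 (Trex1 KO). The part of the 18S signal in the members' values was not tested, and a fit with the Actb ratio is given with the results.

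Regulatory sequence of 37 members was at hand, as the 250 bases upstream of each transcription start in RefSeq (assembly GRCm38.p6). The other 28 members, Mmp2 and Mmp9 among them, had no such window. A gene was counted for a motif if any of its starts had it, and the families with windows differed in what these held. The AP-1 site TGAGTCA, read on both strands and bound by the Fos and Jun proteins, was found for 8 of the 37 (21.6%), against 5.16% of 27025 genes with such a window. Of the 8, 7 were Mmp genes of the cluster on the chromosome of Trex1 (Mmp1a, Mmp1b, Mmp3, Mmp7, Mmp10, Mmp12 and Mmp13) and the other was Adam19. Mmp7, Mmp12 and Adam19 also had a start without the site. The GC box GGGCGG stood upstream of Timp1, Timp2 and Timp3 but not of Timp4, and of 15 of the 37 members (40.5%, against 35.4% of all genes). The core of the interferon-stimulated response element, GAAA, a gap of 2 bases and GAAA on either strand, was found upstream of 1 member, Mmp13 (2.70%), against 3.46% of all genes. It was found for 9 of the 28 genes with a window (32.1%) among the 40 that were higher in Trex1 KO. A match is a description of letters and does not show that a factor binds, and no match says only that these letters are absent from the window.

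An inducible stromelysin and collagenase and the inhibitors Timp1 and Timp2 are printed below to show these layouts, 5' to 3' and ending at the base before the start. Capitals mark matches to the AP-1 site (beginning 46 bases upstream of the start in Mmp3 and 35 in Mmp13), the interferon element core (146 bases upstream in Mmp13) and the GC box (8 bases upstream in Timp1 and 37 in Timp2).
Mmp3, chr9:7445572-7445821, plus strand: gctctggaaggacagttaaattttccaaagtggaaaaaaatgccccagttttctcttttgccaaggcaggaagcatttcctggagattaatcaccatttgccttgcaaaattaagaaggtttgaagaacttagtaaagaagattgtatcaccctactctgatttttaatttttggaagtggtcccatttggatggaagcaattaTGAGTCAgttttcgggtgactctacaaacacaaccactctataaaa
Mmp13, chr9:7272264-7272513, plus strand: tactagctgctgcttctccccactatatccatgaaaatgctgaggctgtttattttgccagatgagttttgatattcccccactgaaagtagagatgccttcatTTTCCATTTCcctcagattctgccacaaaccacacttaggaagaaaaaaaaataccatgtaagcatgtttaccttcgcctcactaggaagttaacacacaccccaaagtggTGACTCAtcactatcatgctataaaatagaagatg
Timp1, chrX:20869916-20870165, plus strand: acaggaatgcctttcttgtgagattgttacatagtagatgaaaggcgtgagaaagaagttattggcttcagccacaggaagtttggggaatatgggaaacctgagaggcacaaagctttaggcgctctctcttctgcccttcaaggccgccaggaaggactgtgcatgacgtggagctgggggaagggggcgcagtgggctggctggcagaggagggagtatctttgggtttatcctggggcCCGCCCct
Timp2, chr11:118355412-118355661, minus strand: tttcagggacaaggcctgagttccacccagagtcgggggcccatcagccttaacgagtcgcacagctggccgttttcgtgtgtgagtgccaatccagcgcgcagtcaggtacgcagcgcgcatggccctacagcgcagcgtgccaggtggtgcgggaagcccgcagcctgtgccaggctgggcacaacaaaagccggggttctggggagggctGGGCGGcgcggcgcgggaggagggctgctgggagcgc

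Loss of Trex1 went with no called change of any tested matrix protease or inhibitor, and 23 members were too dim to test. The 42 members that passed the filter on dim signals were tested, and 0 were called higher and 0 lower (limma, Benjamini-Hochberg adjusted p from 0.712 to 0.998), where 40 of 12808 tested genes (0.312%) were called higher and 5 (0.0390%) lower. With littermate pairs as a block the members' counts were again 0 and 0 (limma adjusted p from 0.154 to 0.992), against 0.531% and 0.0937% of all genes. At an unadjusted p under 0.05 there was 1 member, Timp2 (2.38% of 42, against 5.36% of all genes), and 2 with the block, Timp2 and Mmp2. These counts depend on the choice of the brightest probe set. Of all 69 tested probe sets of members, 6 had an unadjusted limma p under 0.05 without the block, all of Timp2, Mmp2 or Mmp14, and 0 were called. The members' differences were evenly split, 21 above and 21 below 0. Their median was 0.0025 on the log2(signal + 16) scale, Trex1 KO minus Trex1 WT, against -0.024 for all tested genes.

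The precision differed between bright and dim members. For 26 members the signal exceeded the highest signal of 27 bacterial control probe sets (69.8) on all 6 arrays, and for 19 it exceeded it on none. Among the 26, the limma 95% interval of the difference lay inside a 2-fold change in either direction for 25. Among the 16 other tested members that held for 4. For the 13 members with a mean signal of 500 or more, differences lay between -0.18 and 0.39 and no interval reached beyond -0.90 or 0.66. The lower of these bounds is that of Timp4 in the fit without the pair block. A change smaller than these bounds could have gone undetected. The intervals are those of single genes and do not give the size at which an adjusted call is reached. The bright natriuretic peptide gene Nppa, not a member, differed by 0.996 and was not called in this fit (limma adjusted p = 0.126).

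**Figure D1:**
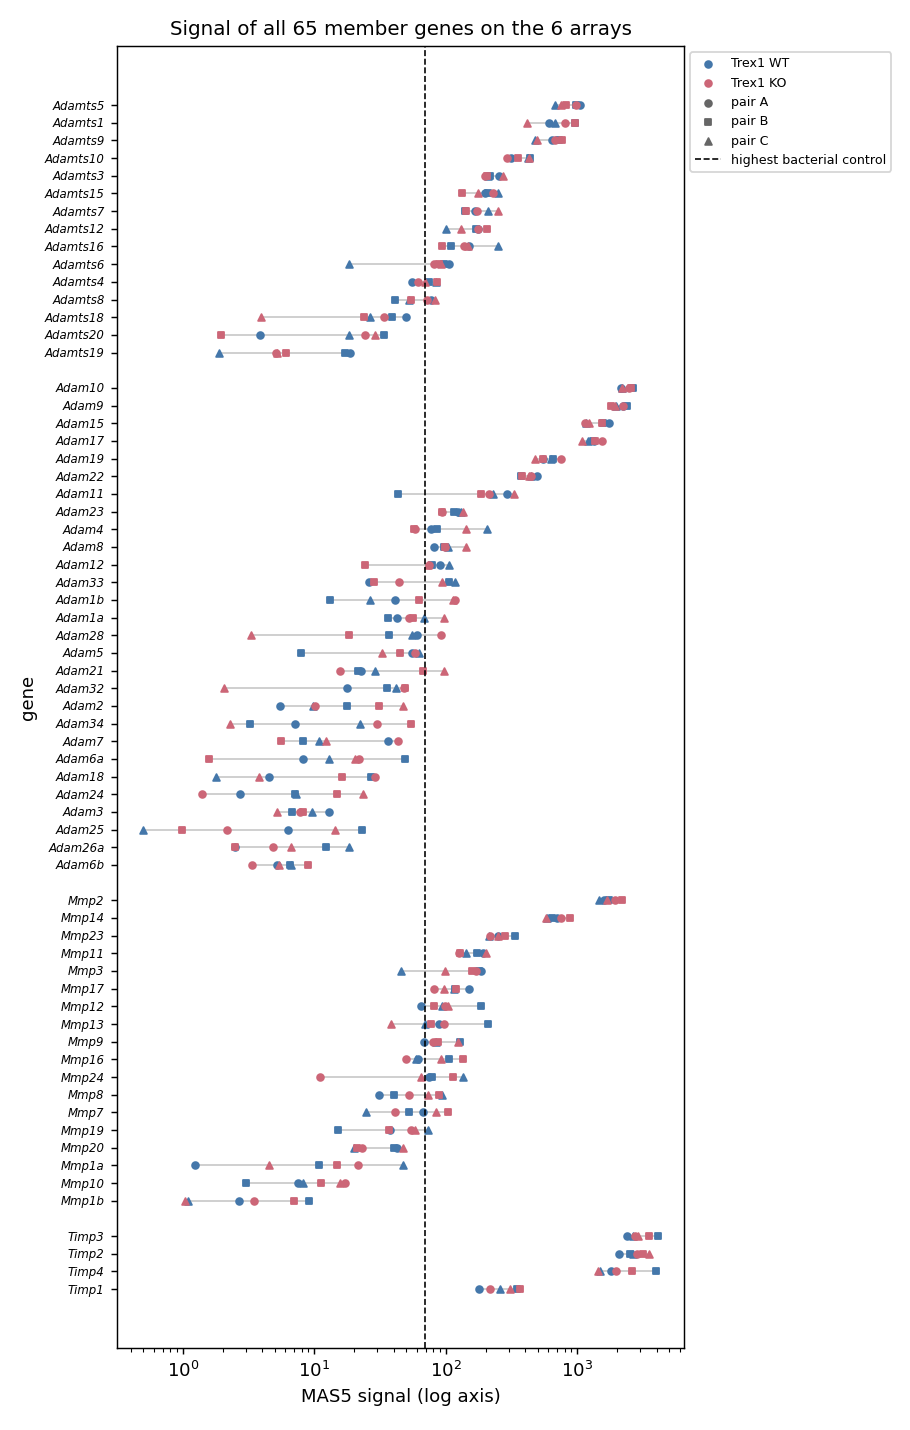
Signal (log axis) of the 65 member genes on each of the 6 arrays, by family, with grey lines spanning the range of each gene and a dashed line at the highest bacterial control signal, 69.8. Timp genes lie to the right of the line on all arrays, while 19 genes, most of them Adam genes, lie to its left on all arrays.

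The 4 Timp genes, the inhibitors, were measured well above background. Timp2, which inhibits Mmp2 and also takes part in its activation at the cell surface, had signals of 2082, 2523 and 2667 (Trex1 WT) against 2849, 3158 and 3491 (Trex1 KO). Every Trex1 KO array lay above every Trex1 WT array. On the log2 scale this came to 0.39 (SE 0.13, 95% interval 0.11 to 0.66, 1.31-fold), and did not pass after adjustment (limma adjusted p = 0.712, or 0.154 when the litters were blocked by pair). By litter it was 0.45, 0.32 and 0.39. Timp2 was the 1 tested member whose groups separated in this direction, which 5.06% of all tested genes did.

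Probe sets of Timp2 did not give 1 answer. Of its 6 probe sets 5 were tested. In 4 the Trex1 KO animal was above its littermate in all 3 pairs, with differences from 0.39 to 0.62, and in 3 of them the groups did not overlap. The strongest, 1450040_at, had signals of 685, 662 and 845 (Trex1 WT) against 1001, 1143 and 1236 (Trex1 KO), a log2 difference of 0.62 (SE 0.14, limma adjusted p = 0.257, or 0.0645 with the pair block). The remaining one, 1454677_at, was level, with 2523, 2706 and 2584 (Trex1 WT) against 2610, 2529 and 2672 (Trex1 KO), a log2 difference of 1.03e-05 (SE 0.094). The position of each probe set on the transcript was not analysed here. After adding the 3' to 5' Actb ratio to the fit, the brightest Timp2 probe set differed by 0.28 (limma adjusted p = 0.885), and the dimmest tested one, which gave 0.60 without it, by -0.30 (limma adjusted p = 0.911).

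**Figure D2:**
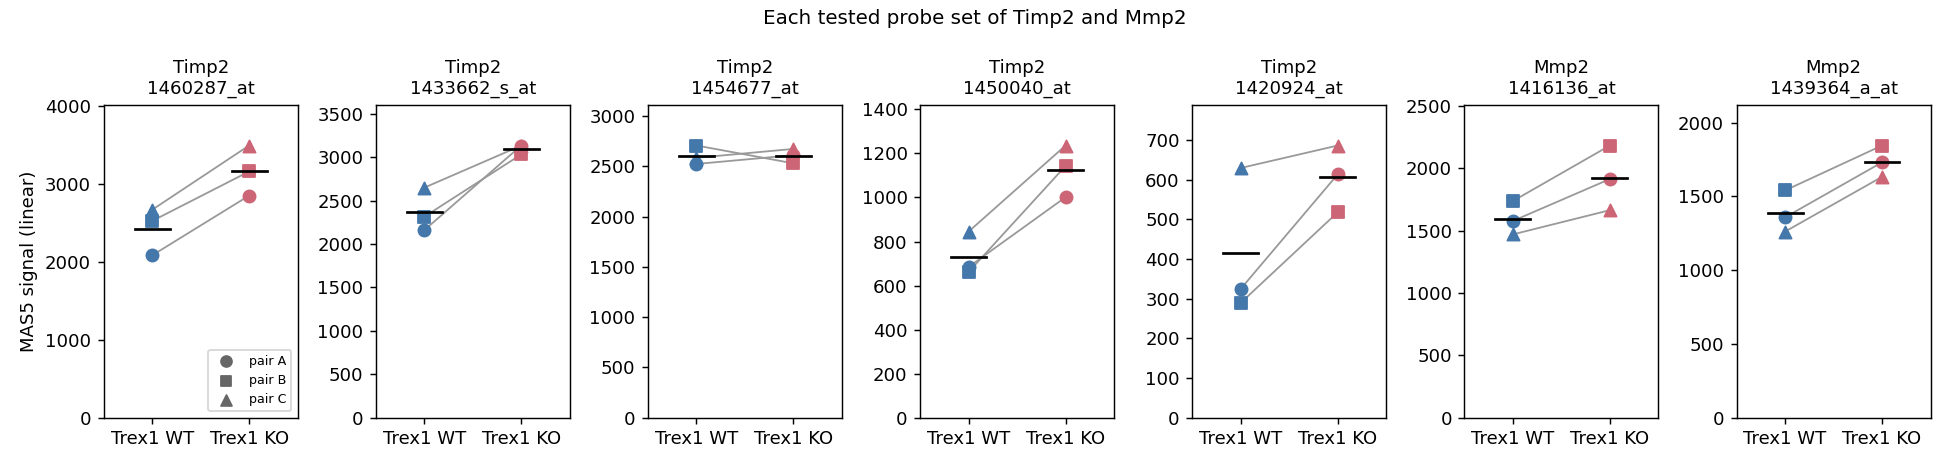
Linear signal of the 5 tested probe sets of Timp2 and the 2 of Mmp2 in Trex1 WT and Trex1 KO, with grey lines joining littermates, symbols for pairs A, B and C and black bars for group means. The lines rise in all panels but that of the Timp2 probe set 1454677_at, where pair B falls and the group means coincide.

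The other inhibitors varied more between litters than between genotypes. Timp1, the inhibitor most often induced in inflamed tissue, had signals of 179, 346 and 260 (Trex1 WT) against 218, 369 and 305 (Trex1 KO). It was higher in the Trex1 KO animal of each pair, but the groups overlapped (log2 difference 0.19, SE 0.26, limma adjusted p = 0.971). Timp3, which is bound to the matrix and also blocks Adam17, had 2389, 4115 and 2668 (Trex1 WT) against 2764, 3520 and 2903 (Trex1 KO), a difference of 0.035 (95% interval -0.38 to 0.45). Timp4, known for its expression in heart, had 1787, 3992 and 1474 (Trex1 WT) against 1977, 2622 and 1442 (Trex1 KO), a difference of -0.16 (95% interval -0.90 to 0.58). With the pair block these intervals were narrower, -0.20 to 0.27 for Timp3 and -0.48 to 0.15 for Timp4. Dimmer probe sets differed in sign, with log2 differences of 0.30, 0.042 and -0.13 for Timp3 and 0.063 for Timp4. In pair B both animals exceeded all other 4 mice on the brightest probe sets of Timp1, Timp3 and Timp4, not on that of Timp2.

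That pattern of pair B, noticed after the values were seen, was shared by 8 of the 42 tested members (19.0%, against 10.1% of all tested genes). The others were Adam10, Adamts1, Adamts9, Mmp16 and Mmp23. Each gene was counted by its brightest probe set, and dimmer ones differed. Timp3 1419089_at and the other Timp4 probe set also showed the pattern. Timp3 1449334_at and 1419088_at did not, the latter with 383 and 621 in pair B against 698 in Trex1 WT C. The other tested probe sets of Adam10, Adamts9 and Mmp23 did not show it either. Both animals of pair A were highest for 2 members (4.76%, against 7.27% of genes) and both of pair C for 5 (11.9%, against 10.5%). The summed signal of 8 fibroblast markers was 56090 and 53552 in Trex1 WT B and Trex1 KO B and between 43446 and 51720 in the other 4 animals. Dcn, at 18564 to 24223, gave the largest part of it. Only Dcn and Dpt were themselves highest in both animals of pair B, and Pdgfra (1070) and Tcf21 (797) were lowest of all in Trex1 KO B. The summed signal of 6 endothelial markers was 14077 and 11950 in pair B and between 9233 and 10766 elsewhere. Macrophage and monocyte markers (24305 and 26904, against 16312 to 21812) and platelet markers (3508 and 3770, against 2229 to 2840) were also highest in both animals of pair B. These 4 lists were picked after their values were seen, and the other marker lists did not show the pattern. Smooth muscle and pericyte markers, for example, summed to 29191 and 24069 in pair B against 24892 in Trex1 WT C. The part of these 4 lists in the members' values was not tested. In a bulk sample, fewer cells of a type and less RNA per cell cannot be told apart.

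**Figure D3:**
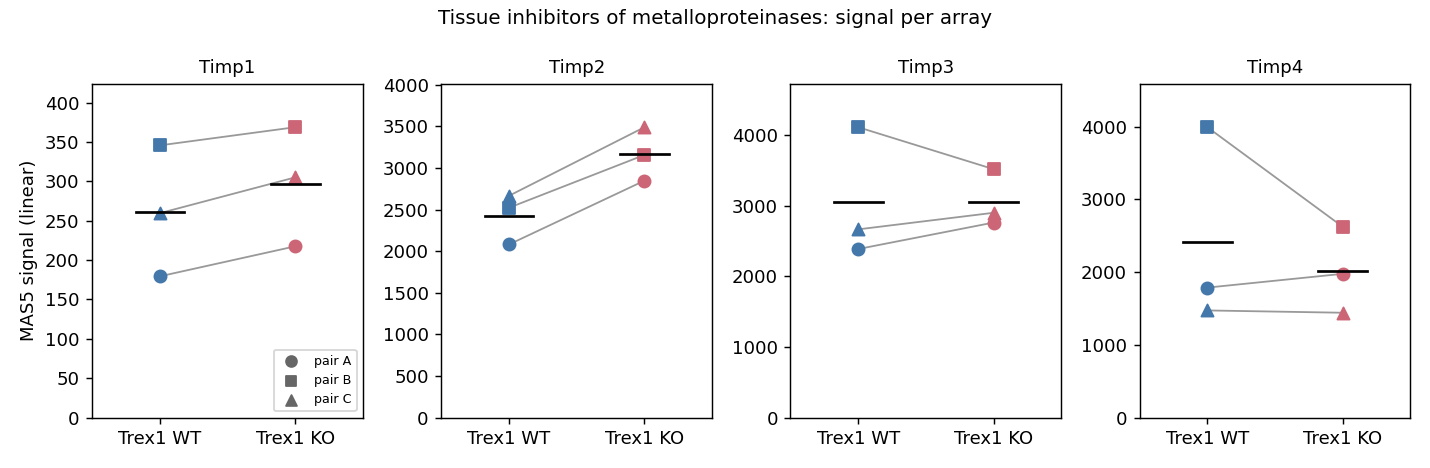
Linear signal of Timp1, Timp2, Timp3 and Timp4 in Trex1 WT and Trex1 KO, with grey lines joining littermates, symbols for pairs A, B and C and black bars for group means. The Timp2 groups do not overlap, whereas for Timp1, Timp3 and Timp4 the squares of pair B lie above all other points.

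Mmp genes were measured unevenly: 13 of 18 were tested, with differences from -0.73 to 0.53 (median 0.061). The gelatinase Mmp2, which digests denatured collagen and basement membrane, had signals of 1579, 1738 and 1471 (Trex1 WT) against 1915, 2184 and 1665 (Trex1 KO). It was higher in the Trex1 KO animal of each pair, by 0.28, 0.33 and 0.18, with overlapping groups (log2 difference 0.26, SE 0.13, limma adjusted p = 0.943, and 0.489 with the block). Its other probe set gave 0.32 and did separate the groups, with 1261 to 1540 in Trex1 WT and 1632 to 1844 in Trex1 KO (limma adjusted p = 0.785). Mmp14, the membrane-bound enzyme that activates Mmp2, had 700, 643 and 583 (Trex1 WT) against 754, 885 and 575 (Trex1 KO), an overlap (difference 0.18, 95% interval -0.20 to 0.55). A dimmer Mmp14 probe set was higher in Trex1 KO in all 3 pairs (difference 0.61, limma adjusted p = 0.867).

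Mmp9, the gelatinase of neutrophils and macrophages, was close to the bacterial controls and showed no separation. Its signals were 67.9, 129 and 83.6 (Trex1 WT) against 79.7, 86.3 and 124 (Trex1 KO), a log2 difference of 0.061 (95% interval -0.62 to 0.74, limma adjusted p = 0.993). The summed signal of 7 measured neutrophil markers was 739, 700 and 599 (Trex1 WT) against 528, 1658 and 1292 (Trex1 KO), so those sums overlapped too. Mmp8, the collagenase of neutrophils, had signals between 31.2 and 92.8. Mmp12, the elastase of macrophages, had 64.9 to 183. The 9 measured macrophage and monocyte markers summed to 17810, 24305 and 16312 (Trex1 WT) against 20084, 26904 and 21812 (Trex1 KO). Their sum was higher in the Trex1 KO animal of each pair, though the groups overlapped and 0 of the 9 were called.

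The inducible collagenases and stromelysins, among them Mmp3 and Mmp13 with the AP-1 sites printed above, were dim. Mmp13 had signals of 89.0, 210 and 69.2 (Trex1 WT) against 95.8, 76.5 and 38.5 (Trex1 KO). Its difference changed sign between pairs (0.091, -1.29 and -0.64), and Trex1 WT B alone stood high. Mmp3 had 185, 178 and 45.3 (Trex1 WT) against 169, 159 and 99.0 (Trex1 KO), a log2 difference of 0.21 (SE 0.44, limma adjusted p = 0.979), with pair C below the others. The collagenases Mmp1a and Mmp1b and the stromelysin Mmp10 did not reach the filter on dim signals. Mmp10 was higher in each Trex1 KO animal (17.1, 11.2 and 15.5 against 7.48, 3.02 and 8.16) at signals far below the highest control. Of the 8 members with an AP-1 site, 5 were tested, and only Adam19 exceeded the controls on all arrays.

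Of the other Mmp genes, Mmp11, a stromelysin activated inside the cell, had signals between 125 and 203 (difference -0.15) and Mmp23, an unusual membrane-anchored member, between 211 and 334 (difference -0.062), both with overlapping groups. Mmp7, which lacks the hemopexin domain of most relatives, and the membrane-type enzymes Mmp16, Mmp17 and Mmp24 had signals between 11.1 and 149 and did not pass. Probe sets of Mmp24 pointed in opposite directions: the brighter gave -0.73 with overlapping groups, and another gave 0.75, with 48.8, 84.0 and 31.8 (Trex1 WT) against 86.9, 110 and 97.1 (Trex1 KO) and no overlap (limma adjusted p = 0.955 and 0.927). The enamel protease Mmp20 and Mmp19 were not bright enough to test. The cluster of 9 Mmp members and 4 other members (Adam10, Adamts7, Adamts8 and Adamts15) share the chromosome of Trex1. The nearest, Adamts7, is separated from Trex1 by 134 tested genes in the RefSeq gene order, and the Mmp cluster by at least 584.

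Of 28 Adam genes, 8 exceeded the bacterial controls on all arrays and 12 on none. Adam10 and Adam17, the main sheddases of Notch and of tumour necrosis factor, had narrow intervals. Adam10 had 2131, 2654 and 2195 (Trex1 WT) against 2487, 2539 and 2190 (Trex1 KO), a log2 difference of 0.051 (95% interval -0.21 to 0.32). Adam17 had 1334, 1302 and 1208 (Trex1 WT) against 1529, 1349 and 1080 (Trex1 KO), a difference of 0.028 (95% interval -0.28 to 0.34). Neither group separated, and the dimmer Adam17 probe sets gave -0.15 and 0.23. These intervals lie inside a change of 0.34 in either direction.

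Adam9, a widely expressed sheddase, was lower in Trex1 KO in all 3 pairs but by unequal amounts: 2239, 2374 and 1978 in Trex1 WT against 2233, 1799 and 1922 (difference -0.15, 95% interval -0.42 to 0.12). Adam15, found on endothelium and muscle, had 1749, 1558 and 1154 (Trex1 WT) against 1143, 1548 and 1225 (Trex1 KO), a difference of -0.18, and Trex1 WT A and Trex1 KO A were farthest apart. Adam19, needed for heart valve and septum development, had 547, 650 and 625 against 751, 549 and 472 (difference -0.061). In all 3 the groups overlapped, and 2 of them, Adam15 and Adam19, had other tested probe sets with differences above 0. Adam15 probe set 1454206_a_at gave 0.65 and was higher in Trex1 KO in all 3 pairs, with overlapping groups (limma adjusted p = 0.955). Its remaining tested probe sets gave 0.031 and -0.26.

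Adam12, a sheddase of HB-EGF known from muscle and hypertrophic heart, was the 1 tested member with every Trex1 KO array below every Trex1 WT array, which 5.83% of all tested genes showed. Its signals were 90.6, 78.1 and 105 (Trex1 WT) against 74.3, 24.4 and 73.0 (Trex1 KO), near the highest bacterial control. The difference of -0.64 (SE 0.38, 95% interval -1.47 to 0.20) did not pass (limma adjusted p = 0.955), and the nearest animals, Trex1 WT B and Trex1 KO A, lay at 78.1 and 74.3. Its other probe set, too dim to test, was higher in Trex1 KO in all 3 pairs.

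Adam8, a marker of activated myeloid cells, was higher in the Trex1 KO animal of each pair at low signals of 81.4, 97.4 and 103 against 99.1, 99.0 and 141 (difference 0.22, limma adjusted p = 0.967). Adam1a and Adam4, of the sperm-related group, had differences of 0.38 and -0.43 and signals of 36.1 to 205. The 4 further Adam1a probe sets are shared with Mapkapk5 and were not used. Adam11, Adam22 and Adam23, neural members that lack a working protease site, had signals of 43.2 to 493 and Adam33 of 25.8 to 117, with overlapping groups.

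The other 15 Adam genes did not reach the filter. They were Adam1b, Adam2, Adam3, Adam5, Adam6a, Adam6b, Adam7, Adam18, Adam21, Adam24, Adam25, Adam26a, Adam28, Adam32 and Adam34, most of them genes of testis and sperm, and 12 of the 15 never exceeded the highest control. Adam1b alone among these had all Trex1 KO arrays above all Trex1 WT arrays, with 117, 62.5 and 114 against 41.2, 13.2 and 26.7. Adam28, a lymphocyte metalloproteinase, had signals between 3.26 and 91.7.

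Adamts genes showed the narrowest range of differences apart from the inhibitors, from -0.34 to 0.41 over 12 tested of 15 (median 0.0025). Adamts5, the chief aggrecanase, had signals of 1054, 967 and 673 (Trex1 WT) against 970, 811 and 755 (Trex1 KO), a log2 difference of -0.068 (95% interval -0.46 to 0.33). Adamts1, a versican-cutting enzyme induced early in inflammation, had 608, 956 and 677 against 810, 950 and 415. Its pair differences ran from 0.40 in pair A to -0.68 in pair C, which left a mean of -0.096 (SE 0.28, limma adjusted p = 0.987). Adamts9 also cuts versican, and its brightest probe set was steady within pairs. It had 643, 728 and 476 (Trex1 WT) against 672, 763 and 491 (Trex1 KO), a difference of 0.058 (pair differences of 0.062, 0.067 and 0.045). The other tested Adamts9 probe sets fell in pair C, with pair differences of 0.10, 0.094 and -0.21, and of 0.36, 0.62 and -0.86.

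Adamts3, which trims procollagens, had signals between 198 and 272 and a difference of -0.016, and Adamts10, which binds fibrillin, between 294 and 432 with -0.12. Adamts12, which cuts cartilage oligomeric matrix protein, was higher in Trex1 KO in each pair (174, 168 and 99.4 against 176, 205 and 130, difference 0.21). Adamts16 was lower in each pair (150, 110 and 250 against 137, 92.6 and 148, difference -0.34). Neither separated the groups or passed (limma adjusted p = 0.970 and 0.956). Adamts4, Adamts6, Adamts7, Adamts8 and Adamts15 had signals of 18.3 to 249, and Adamts18, Adamts19 and Adamts20 were not bright enough to test.

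**Figure D4:**
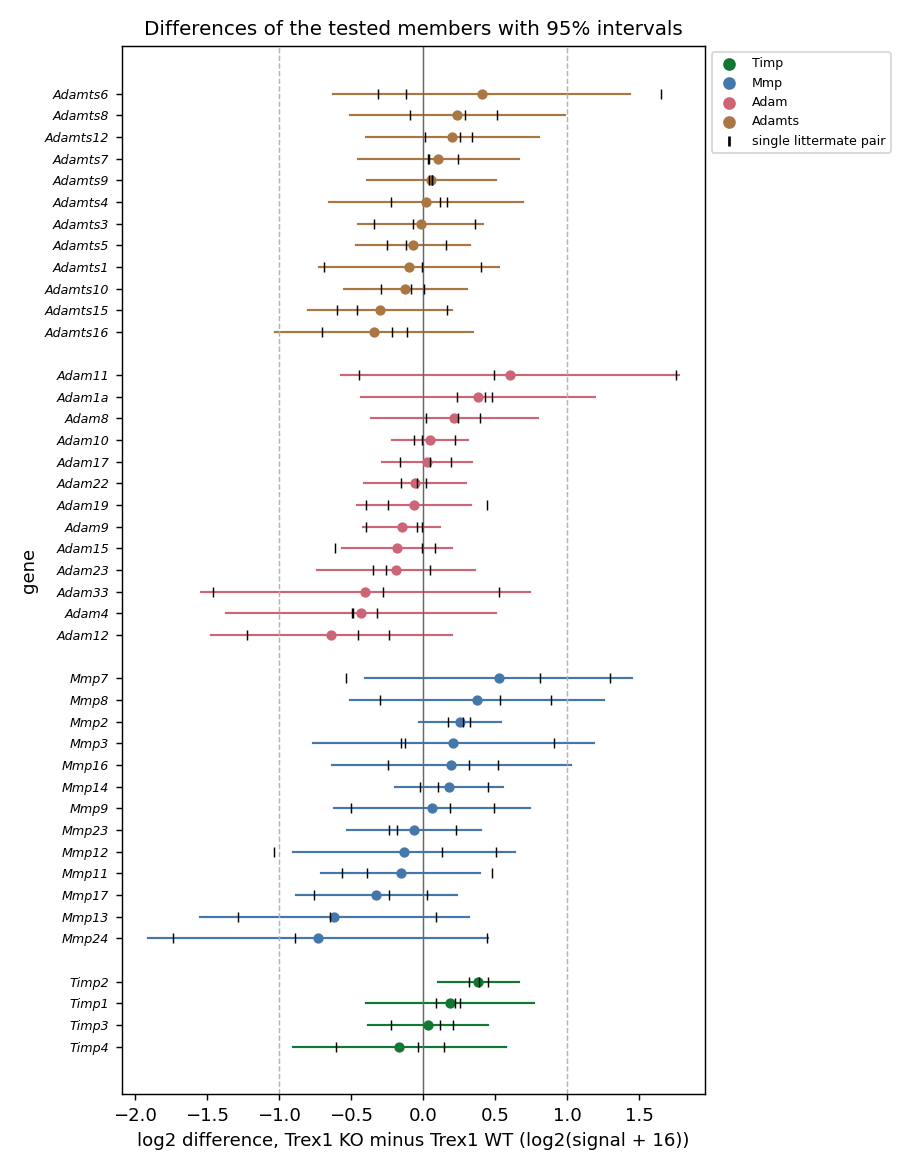
Log2 difference (Trex1 KO minus Trex1 WT on the log2(signal + 16) scale) of the 42 tested members with limma 95% intervals, coloured by family, black ticks for the single littermate pairs, and dashed lines at a 2-fold change. Only the interval of Timp2 does not include 0, and the intervals of Mmp24 and Adam11 are the widest.

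Direction within litters was counted next. In 8 of 42 (19.0%) the Trex1 KO animal was higher in all 3 pairs, against 13.1% of tested genes, and in 4 (9.52%) it was lower in all 3, against 17.8%. The 8 were Timp1, Timp2, Mmp2, Adam1a, Adam8, Adamts7, Adamts9 and Adamts12, and the 4 were Adam4, Adam9, Adam12 and Adamts16. These counts use the brightest probe set of each gene. Of the 16 members with more than 1 tested probe set, 8 had differences of both signs between probe sets, Adamts9 among them. Exact permutation of 3 arrays against 3 cannot go below p = 0.1 for a single gene.

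Lists of genes around this system held no called gene. The background for their counts at an unadjusted limma p under 0.05 is 5.36% of all tested genes. Among the genes listed as other matrix proteases, 0 of 18 tested were called in either direction (median 0.014). Those at an unadjusted limma p under 0.05 were 3, Fap, Ctsz and Hpse. The list also holds Lox, Hpse and Mpo, which are not proteases, and Lox and Hpse are among the 18. The smallest p was that of Fap, a serine protease of activated fibroblasts, at 519 ± 155 and 330 ± 39.9 (SD, n = 3, log2 difference -0.60, limma adjusted p = 0.777). Among activators, adaptors and inhibitors, 0 of 27 were called (median -0.052, 1 at an unadjusted limma p under 0.05), with the smallest p for Tspan17, a tetraspanin partner of Adam10 (difference 0.34, limma adjusted p = 0.890). Furin, which activates many of these precursors, had 661 ± 30.0 and 643 ± 51.2, and Reck, a membrane-anchored Mmp inhibitor, 298 ± 89.2 and 273 ± 60.7 (both chosen after their values were seen).

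Among substrates no gene was called. Of 30 tested, 0 passed and 21 lay above 0, with a median of 0.18 against -0.024 for all tested genes. An unadjusted limma p under 0.05 was found for 4 of the 30, against 5.36% of all tested genes. Biglycan (Bgn), a small matrix proteoglycan, had the smallest p, with 3588, 3690 and 4734 (Trex1 WT) against 5027, 4704 and 5445 (Trex1 KO), a difference of 0.34 (limma adjusted p = 0.796). Its groups overlapped, since Trex1 WT C exceeded Trex1 KO B. With littermate pairs as a block 0 members of the 3 lists were called.

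The summed signals of the mast cell and atrial lists did not overlap between the groups, though not all their genes separated. Those of the other marker lists did overlap. The summed signal of 5 mast cell markers was 433 to 647 in Trex1 WT and 270 to 344 in Trex1 KO, with the tryptase Tpsb2 at 106 ± 22.5 and 26.0 ± 11.5 (SD, n = 3, limma adjusted p = 0.270). The mast cell proteases Cma1 and Mcpt4, also on the list of other matrix proteases, had 135 ± 43.5 and 95.8 ± 31.2, and 45.2 ± 26.7 and 6.65 ± 3.24. Tpsb2, Mcpt4 and Cpa3 separated the groups, whereas Cma1 and Kit overlapped. Of all tested genes, 5.83% had every Trex1 KO array below every Trex1 WT array. Mcpt4 was too dim to test and exceeded the highest bacterial control on 1 array only. The 5 atrial markers summed to 11366 to 19406 and 28618 to 36260, nearly all of it from Nppa, a natriuretic peptide. Nppa had 16165 ± 4540 and 31458 ± 3918 (SD, n = 3) and was called higher with the pair block (limma adjusted p = 0.0089, and 0.126 without it), while Myl7, Myl4, Sln and Bmp10 overlapped between the groups. Periostin (Postn), a matrix protein of activated fibroblasts, had 1879 ± 351 and 3009 ± 335 (limma adjusted p = 0.203). On the same list, Fap and Acta2, the smooth muscle actin, had differences of the opposite sign in all 3 pairs (-0.60 and -0.67, limma adjusted p = 0.777 and 0.955). The 5 genes of that list summed to 6522 to 16972 and 6671 to 13825, most of it from Acta2. Fibroblasts are a main source of Timp2 and Mmp2, and the 8 fibroblast markers summed to 43446 to 56090 and 48623 to 53552 with 0 of 8 called. The part of these markers in the values of Timp2 and Mmp2 was not tested.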

How the data were processed

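Total RNA of heart ventricle from 6 mice was biotin-labelled, with 1 array for each animal. Each deposited value is a linear probe set intensity from the authors, and the submitters' processing notes name MAS5, whose version and settings were not found in the sources used here. The mean of each array after trimming 2% at either end was 500.0, so arrays had been scaled before deposit and were used as they stand. Precision is limited by the number of arrays.

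Values were taken as log2(signal + 16). Of 45101 probe sets 64 were array controls. The 27022 with a mean at or above the 40th percentile (log2 6.13, a signal of 53.8) entered limma 3.58.1 (R 4.3.3) with lmFit and trended eBayes, on 3 Trex1 WT arrays against 3 Trex1 KO arrays (4 residual degrees of freedom, 2 with the block), two-sided, with Benjamini-Hochberg adjustment over all tested probe sets and a threshold of 0.05. The code was tested on simulated data. Folds on this scale understate changes of dim genes.

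Groups came from the sample titles. The series' design names the littermates, and deviations from group means correlated across tested probe sets at 0.15, 0.19 and 0.15 within pairs and from -0.16 to 0.010 otherwise, so an alternative fit blocked on the pair.

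Symbols came from the platform annotation, and all 65 members matched the RefSeq gene table of GRCm38.p6 by identifier. The 5 probe sets that name a member together with another gene were left out. Named genes were all Timp genes, in each direction up to 6 of the smallest p among members with 1 sign in all 3 pairs, the 5 brightest of each other family, 7 well-studied members, and from each pathway list the calls or the smallest p; other members are described from their signals, chosen after their values were seen. Members and lists were chosen with earlier results of these data known. Detection calls, probe-level values and protein sequences were not used here.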

Additional observations from a re-analysis of the deposited data

How the results depend on the processing

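Under 18 alternatives 0 members were called in either direction, with the smallest adjusted p of a named member, 0.154 for Timp2, under the replicate block. The number of members tested was 65 without a filter on dim signals, 21 with a filter at the 60th percentile and 36 with all probe sets of a gene averaged. The members' median of 0.0025 was 0.17 with the Actb ratio as a covariate, -0.10 without littermate pair C and between -0.046 and 0.068 without single arrays, the last without Trex1 WT B. Of 26 named members, 7 kept their direction under every alternative that tested them (Timp2, Mmp2, Mmp14, Adam4, Adam8, Adam12 and Adamts16). Over all 26 there were 56 changes of sign in 458 combinations of member and alternative, with 0 calls. The cause was not tested. With the Actb ratio as a covariate, differences were 0.84 for Timp4, 0.43 for Adamts5, 0.41 for Mmp23, 0.18 for Mmp11, 0.17 for Adam15, 0.12 for Adam9, 0.11 for Adamts3, 0.084 for Adamts1 and -0.15 for Adam1a. With probe sets averaged they were 0.24 for Adamts3, 0.11 for Mmp23, 0.060 for Adam15 and 0.045 for Adam19. Without pair A they were -0.033 for Adam10, 0.038 for Adam15, -0.055 for Adam17, 0.14 for Adamts3, 0.048 for Mmp11, -0.0032 for Mmp9 and -0.052 for Timp3. Without pair B they were 0.027 for Adam19, 0.010 for Adamts3, 0.023 for Adamts5, 0.025 for Mmp23 and 0.056 for Timp4. Without pair C they were 0.10 for Adam19, 0.20 for Adamts1, -0.14 for Mmp3, -0.15 for Mmp9 and -0.0076 for Timp3. Without single arrays the ranges were -0.0081 to 0.15 for Adam10, -0.084 to 0.16 for Adam17, -0.24 to 0.082 for Adam19, -0.33 to 0.25 for Adamts1, -0.27 to 0.0028 for Adamts10, -0.028 to 0.37 for Adamts12, -0.15 to 0.064 for Adamts3, -0.26 to 0.059 for Adamts5, -0.11 to 0.23 for Adamts9, -0.20 to 0.11 for Mmp23, -0.35 to 0.51 for Mmp3, -0.11 to 0.28 for Mmp9, -0.042 to 0.40 for Timp1, -0.12 to 0.27 for Timp3 and -0.45 to 0.27 for Timp4. Pathway list counts stayed at 0. Signals near the bacterial controls limit the dim members, for which a change of 2-fold could be missed. At bright signals such a change could be missed too, as for Nppa without the pair block (log2 difference 0.996, limma adjusted p = 0.126).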
